A study of Mus musculus with 2 samples.

Results

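The regions described here are DNase I hypersensitive regions of mouse hippocampus that lie in gene deserts, far from the transcript starts of protein-coding genes. A region of replicate 1 was taken where it overlapped a region of replicate 2 by at least 1 bp on chromosomes 1 to 19. Its midpoint had to lie outside every protein-coding gene body, more than 10 kb from the transcript starts of all annotated genes, and more than 100 kb from the transcript starts of protein-coding genes (GENCODE M21, mm10). The distance is to starts, so a member can lie nearer than this to the end of a gene body. The rule used position and presence in both libraries, and no height, footprint or sequence. It gave 3106 regions of the 46876 shared autosomal regions, or 6.63%.

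The tissue was hippocampus, labelled a layer of hippocampus, from B6CASTF1/J males 10 days old, a cross of C57BL/6J with CAST/EiJ, with no treatment named. A single group of 2 libraries was sequenced, with no second condition, and each sample was described as holding 3 males. The donor label is the same for both, so the spread between them is that of these 2 samples and may be technical. Promoters of the 5 neuronal markers were open in both libraries, as were 4 and 5 of 5 hippocampal markers, Lef1 being closed in replicate 1. Of 4 glutamatergic promoters 3 and 4 were open, Slc17a7 being closed in replicate 1. Of the lists for other brain cells, 11 and 10 of 14 astrocyte promoters were open. So were 8 and 10 of 15 oligodendrocyte lineage and 11 and 17 of 24 interneuron promoters. Gjb6 of the astrocyte list and Sox10, Cspg4, Mog, Mag and Mobp of the oligodendrocyte list were closed in both libraries. The same held for the interneuron genes Dlx1, Dlx2, Dlx6, Lhx6, Nkx2-1, Sst and Npas1. The share open among all promoters is not given here, so counts per list do not measure which cells were present. Of 14 microglial promoters 3 and 6 were open, of 15 endothelial and mural promoters 6 in each, and of 24 hepatocyte and muscle promoters 3 and 4, in replicates 1 and 2.

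DNase I cuts DNA where nucleosomes leave it exposed, so a hypersensitive region marks a promoter, an enhancer, an insulator or another site bound by proteins. Gene deserts are long stretches without protein-coding genes, and those beside developmental regulators such as Sox9 are known to hold enhancers that reach their gene over great distances. CTCF is the zinc finger protein that holds chromatin loops and insulates neighbouring domains. NFI factors, RFX factors and basic helix-loop-helix factors such as NEUROD and ASCL bind enhancers of neurons, glia and their progenitors.

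The sequences below are the plus strand of GRCm38 (mm10), 5′ to 3′, with positions counted from 1 at the 5′ end. Capitals mark matches of the CTCF, AGGGGGC, NFI, RFX, NEUROD, ASCL, MEF2, AP-1 and ZFP143 motifs only, and matches of the other motifs searched, such as TEAD, GATA, PU.1 and homeobox, are left in lower case. The first set is shown because these regions, the highest with a CTCF match and the 3 next in height, carry a CTCF consensus or the string AGGGGGC, a fragment of many CTCF sites that was searched after these sequences had been read.
chr4:9135881-9136080: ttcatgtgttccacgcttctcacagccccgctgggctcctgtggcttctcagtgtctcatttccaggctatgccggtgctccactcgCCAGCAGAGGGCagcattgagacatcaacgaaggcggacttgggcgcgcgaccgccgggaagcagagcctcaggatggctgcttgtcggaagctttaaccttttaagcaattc
chr1:61181201-61181400: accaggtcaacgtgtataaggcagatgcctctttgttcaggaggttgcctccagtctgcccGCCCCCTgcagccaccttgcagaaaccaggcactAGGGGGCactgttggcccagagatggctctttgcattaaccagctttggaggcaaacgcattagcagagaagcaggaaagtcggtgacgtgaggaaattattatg
chr1:75925821-75926020: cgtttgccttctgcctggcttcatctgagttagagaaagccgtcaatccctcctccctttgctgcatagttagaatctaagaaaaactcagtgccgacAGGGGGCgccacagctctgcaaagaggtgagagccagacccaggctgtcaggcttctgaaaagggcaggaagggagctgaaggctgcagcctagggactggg
chr3:50906061-50906260: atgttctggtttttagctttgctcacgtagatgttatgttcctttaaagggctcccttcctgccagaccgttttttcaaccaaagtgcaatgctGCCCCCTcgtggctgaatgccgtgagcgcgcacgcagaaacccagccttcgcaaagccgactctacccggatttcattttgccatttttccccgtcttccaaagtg

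In the region at chr4:9135881, between Chd7 and Clvs1, the CTCF match spanned positions 88 to 99 and lay in a footprint of both libraries, a footprint being a short stretch protected from cutting. The region near Icos had the string at positions 62 to 68, outside footprints, and at 96 to 102, inside a footprint of each library. The regions between Slc4a3 and Epha4 (positions 99 to 105) and between Slc7a11 and Noct (95 to 101, reverse strand) also had it inside footprints of both libraries.

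The second set shows motifs of neural factors: the highest desert region with CAGATGG (NEUROD), the region near Gadd45g with CAGATGG and CAGCTG (ASCL), the highest region with the full RFX motif, and the highest with the full NFI motif. Of the Gadd45g region the central 300 bases are printed.
chr1:102628161-102628340: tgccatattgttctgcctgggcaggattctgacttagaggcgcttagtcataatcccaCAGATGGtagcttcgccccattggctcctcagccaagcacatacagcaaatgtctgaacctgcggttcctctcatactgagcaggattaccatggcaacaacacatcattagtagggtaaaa
chr13:52041574-52041873: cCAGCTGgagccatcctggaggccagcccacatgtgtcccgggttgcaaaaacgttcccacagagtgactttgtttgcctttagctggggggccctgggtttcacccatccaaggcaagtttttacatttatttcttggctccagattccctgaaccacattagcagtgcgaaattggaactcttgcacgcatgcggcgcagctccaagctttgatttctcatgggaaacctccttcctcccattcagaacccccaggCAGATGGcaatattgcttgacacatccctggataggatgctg
chr2:21918321-21918540: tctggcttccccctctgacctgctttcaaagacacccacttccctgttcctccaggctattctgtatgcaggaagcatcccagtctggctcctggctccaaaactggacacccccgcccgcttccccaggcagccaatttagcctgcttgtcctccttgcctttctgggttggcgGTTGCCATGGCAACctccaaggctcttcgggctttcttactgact
chr7:137924861-137925060: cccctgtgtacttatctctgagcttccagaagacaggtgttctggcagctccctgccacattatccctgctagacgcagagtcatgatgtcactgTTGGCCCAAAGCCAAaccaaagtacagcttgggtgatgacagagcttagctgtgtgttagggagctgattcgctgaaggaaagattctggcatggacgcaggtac

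The RFX palindrome spanned positions 176 to 189 and the full NFI motif positions 96 to 110, and each lay inside footprints of both libraries. The CAGATGG match of the chr1 region, at 59 to 65, met a replicate 1 footprint (65 to 121) at its last base only. That of the Gadd45g region, at 259 to 265, lay inside a replicate 1 footprint. Neither overlapped a footprint in replicate 2, and the CAGCTG match at 2 to 7 of the Gadd45g region overlapped none in either library. The chr1 region lay 2140 kb from the start of Cdh20, a cadherin gene, in the desert that separates it from Cntnap5b.

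The third set shows regions chosen for footprints or height: a region near Myt1l, among the 3 tied for most footprints, with a ZFP143 motif in capitals; a region near Bdnf with the short NFI motif; the ninth highest, with 2 AP-1 matches; and the highest of all. For the first 2, the central 300 bases are printed.
chr12:29291051-29291350: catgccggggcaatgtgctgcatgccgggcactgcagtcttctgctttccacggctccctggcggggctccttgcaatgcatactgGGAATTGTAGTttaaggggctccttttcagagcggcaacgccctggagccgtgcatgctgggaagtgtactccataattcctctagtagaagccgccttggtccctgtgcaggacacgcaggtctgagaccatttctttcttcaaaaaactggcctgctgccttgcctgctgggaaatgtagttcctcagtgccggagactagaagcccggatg
chr2:109559191-109559490: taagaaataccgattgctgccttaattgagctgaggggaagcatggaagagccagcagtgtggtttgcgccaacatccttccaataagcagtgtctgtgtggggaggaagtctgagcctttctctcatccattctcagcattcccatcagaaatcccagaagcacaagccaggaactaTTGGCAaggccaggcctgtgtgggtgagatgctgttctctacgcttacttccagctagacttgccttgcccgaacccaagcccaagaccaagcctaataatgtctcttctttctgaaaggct
chr10:126511601-126511820: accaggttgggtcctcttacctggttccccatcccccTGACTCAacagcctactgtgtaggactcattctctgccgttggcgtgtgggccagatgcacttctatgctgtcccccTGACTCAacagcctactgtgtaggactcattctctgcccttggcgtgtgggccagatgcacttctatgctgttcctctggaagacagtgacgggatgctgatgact
chr3:5860361-5860530: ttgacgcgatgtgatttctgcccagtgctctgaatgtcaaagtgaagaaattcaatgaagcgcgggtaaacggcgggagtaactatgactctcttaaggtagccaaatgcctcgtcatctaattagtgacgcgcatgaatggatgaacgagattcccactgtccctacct

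In the region of chr10 the AP-1 match at positions 38 to 44 lay outside footprints, and the match at 115 to 121 lay inside one in both libraries. The stretch that starts at position 38 recurs almost unchanged from position 115, so the 2 matches are tandem copies. The placement of reads between these copies was not tested. The region of chr3 had 13 other places in the assembled chromosomes at 90% identity or more over at least 90% of its length. It is counted among the members, and its height is given with that limit.

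Open regions were sparse in the deserts. Sequence that meets the position rule covered 599.6 Mb, or 25.03% of the autosomes outside assembly gaps, and held 5.18 shared regions per Mb. Intergenic sequence at 10 to 100 kb from coding starts held 14.8 per Mb (5519 regions) and deep intronic sequence, over 10 kb from all starts, 11.4 per Mb (5493 regions). The value over the whole autosomes was 19.6 per Mb, and within 1 kb of starts it was 134.7 per Mb. Every autosome had desert regions, from 3.88 per Mb of desert on chromosome 17 to 6.72 per Mb on chromosome 9.

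Before the overlap was required, the libraries listed 3655 and 5521 regions that met the position rule. Of these, 85.0% in replicate 1 and 56.2% in replicate 2 overlapped a region of the other library. Over all autosomal regions the shares were 88.4% and 64.3%. Deep intronic regions had 86.0% and 59.3%, intergenic regions 88.9% and 63.1%, and promoter regions 90.2% and 72.5%. Among these classes the desert shares were the lowest in both libraries, close to those of deep intronic regions.

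Density fell step by step with distance from genes. It was 16.6 per Mb at 10 to 50 kb and 11.6 per Mb at 50 to 100 kb in the neighbouring intergenic class. Within the deserts it was 8.44 per Mb at 100 to 200 kb (1399 regions), 5.17 at 200 to 500 kb (1232), 2.81 at 500 to 1000 kb (375) and 1.60 beyond 1000 kb (100). The order was the same in each library taken alone, from 9.97 to 1.88 per Mb in replicate 1 and from 14.6 to 2.55 per Mb in replicate 2. The median member lay 220 kb from its nearest coding start, with quartiles of 145 and 375 kb.

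**Figure D1:**
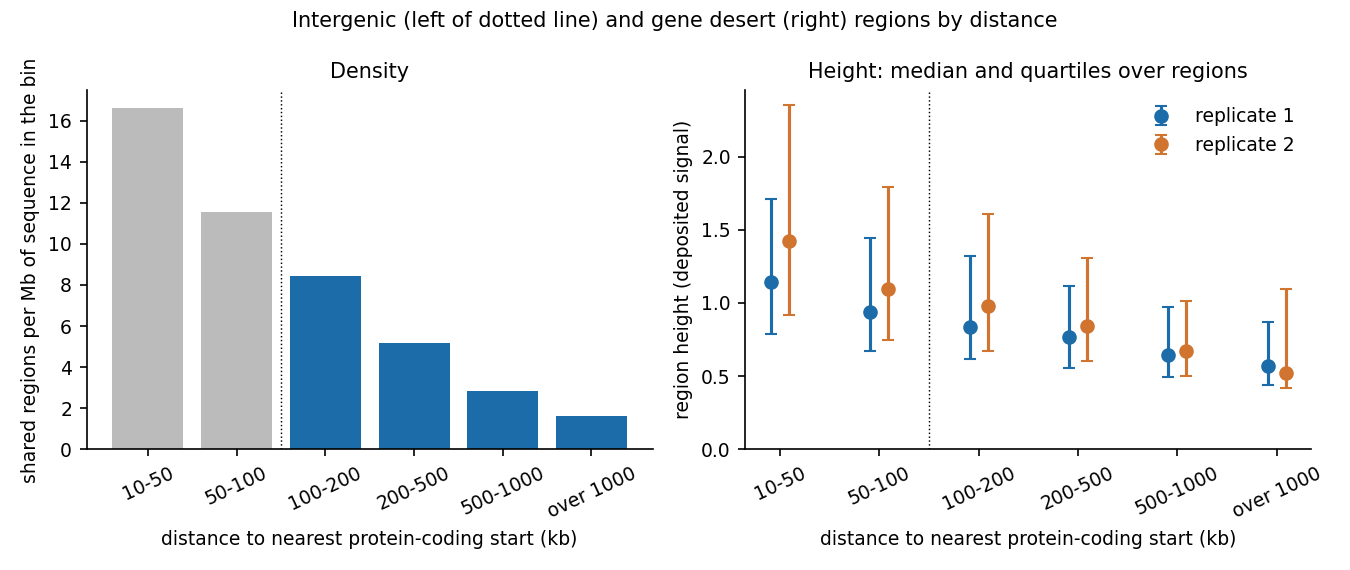
Left, shared regions per Mb of sequence by distance to the nearest protein-coding start (kb), grey for intergenic and blue for gene desert regions. Right, the median region height with quartiles over regions in each library; density falls from 16.6 to 1.60 per Mb, and the medians of both libraries fall with it.

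Desert regions were also low. The height is the signal value the authors deposited for each region, and over the 3106 regions the medians of the libraries were 0.779 and 0.858, with a mean of 0.818 ± 0.0553 (SD, n = 2). Intergenic regions had medians of 1.08 and 1.32, deep intronic regions 0.993 and 1.17, and promoter regions 1.61 and 2.18. The ratio of desert to intergenic medians was 0.721 and then 0.651 (0.686 ± 0.0491, SD, n = 2), and that to deep intronic medians 0.785 and 0.734 (0.759 ± 0.0362). Both libraries gave the same direction. In a tissue of many cell types, fewer cells with an open site and weaker cutting in each cell cannot be told apart. With 2 libraries an exact sign-flip test cannot go below a two-sided p of 0.5, so no test was made.

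Most desert regions lay below the promoter median, 86.7% in replicate 1 and 89.2% in replicate 2. Among the 1000 highest shared regions of each library, 2 and 6 were desert regions. The upper 50% of all shared heights held 23.8% and 20.9% of them, and the upper 10% of heights 1.26% and 1.35%. Of the members, 71.0% and 72.9% lay below the intergenic median.

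**Figure D2:**
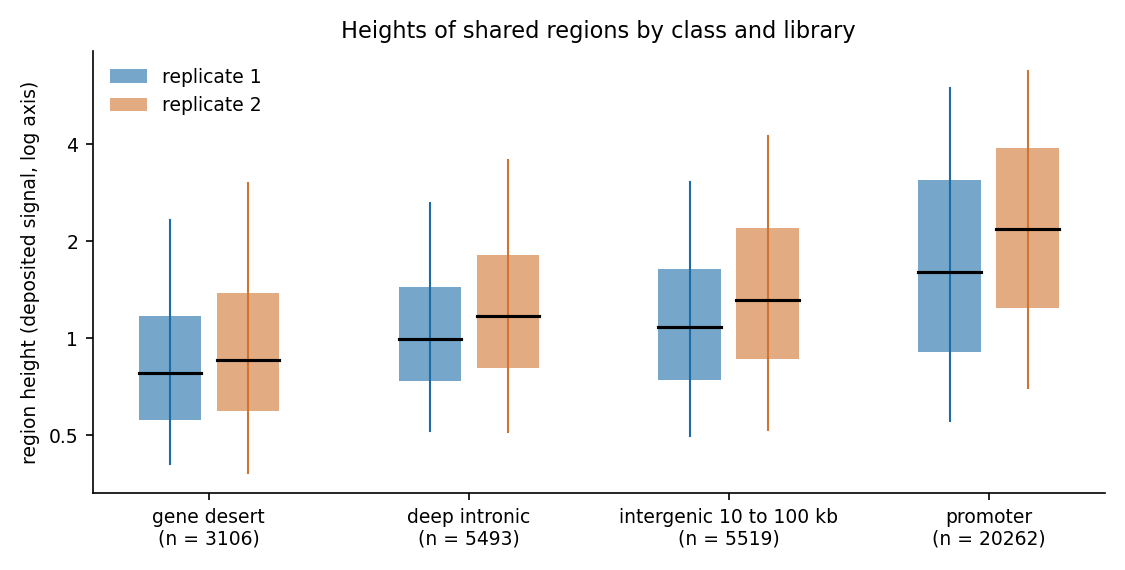
Height of shared regions (deposited signal, log axis) by class, blue for replicate 1 and orange for replicate 2; boxes span the quartiles, lines the 5th to 95th percentile, and black bars the median over regions. Gene desert regions have the lowest medians in both libraries, 0.779 and 0.858.

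Height fell with distance inside the deserts as well. At 100 to 200 kb the medians were 0.836 and 0.978, at 200 to 500 kb 0.767 and 0.841, at 500 to 1000 kb 0.641 and 0.672, and beyond 1000 kb 0.566 and 0.522. In the farthest bin replicate 2 was no longer the higher library. At the 100 kb limit itself there was no step: the 230 regions within 10 kb inside it had medians of 0.842 and 0.978, and the 247 intergenic regions within 10 kb outside it 0.848 and 0.978.

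Heights of the members followed each other across the libraries. Over the 3106 regions Pearson's r of log2 heights was 0.902 and Spearman's rho 0.872, across regions that share the same libraries. The median log2 ratio of replicate 2 to replicate 1 was 0.16, with an SD of 0.40 over regions, against 0.33 over all shared regions. Replicate 2 was higher in 65.5% of members. In 41 members (1.32%) the ratio was more than 2-fold from the median ratio, against 0.821% of all shared regions.

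The highest member, at chr3:5860361, had heights of 18.5 and 26.1 and stood far above the rest. It had 13 other places in the assembled chromosomes, and sequence outside these was not searched. Its repeat class was not determined, and the part of reads from copies in its height was not tested. For these reasons its height cannot be read as that of a single open site. The second, between Cntnap5b and Cdh20, had 5.86 and 8.53, and had 2 other places in the assembled chromosomes. The CTCF-bearing region between Chd7, a chromatin remodeller of neural development, and Clvs1 had 5.79 and 8.20. The regions near Icos, near Slc4a3 and between Slc7a11 and Noct had 6.03 and 7.82, 5.61 and 8.14, and 5.25 and 8.13. These 5 regions were all higher in replicate 2.

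The seventh highest lay inside the long noncoding gene Gm14005, 195 kb from Spdye4c and 234 kb from the cell death gene Bcl2l11, with heights of 4.46 and 6.48. The eighth, 147 kb from Ppp6c, had 4.37 and 5.92, and the 10th, 166 kb from the proteoglycan gene Dcn, had 4.23 and 5.56. The ninth, with the AP-1 match in 2 tandem copies, lay 390 kb from Atp23. It was the exception in direction, at 6.93 in replicate 1 and 5.09 in replicate 2. It ranked second among members in replicate 1 and 27th in replicate 2.

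The farthest member, on chromosome 18 between Celf4, a neuronal RNA-binding protein gene, and Pik3c3, lay 2195 kb from the Pik3c3 start and had heights of 1.59 and 2.03. The regions 2129 kb from Pcdh20, a protocadherin gene, and 2124 kb from Tenm3, a teneurin gene, had 0.503 and 0.628, and 0.440 and 0.694. A second region of the Celf4 desert, 2083 kb from Celf4, had 1.36 and 1.77.

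Members were short and richer in G and C than their surroundings. The median width was 180 bp, from 21 to 640 bp, as in the intergenic and deep intronic classes (180 bp each). The widest, near Cd180, had heights of 1.45 and 1.01. Median GC content was 50.5%, against 41.7% in windows of the same length 5 kb to either side (6090 windows, 122 that overlapped a region or met a gap left out) and 39.2% over all desert sequence. Intergenic regions had 52.3%, deep intronic regions 52.1% and promoter regions 63.8%.

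CpG dinucleotides were rare. The median observed to expected CpG ratio was 0.233, against 0.758 in promoter regions and 0.130 in the flanks. Only 49 members (1.58%) had at least 55% GC and a ratio of at least 0.65, against 61.3% of promoter regions. Their median heights were 0.805 and 1.13, and 5 of them lay in a long noncoding gene body.

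Members held few repeat bases. Soft-masked bases, which mark interspersed and simple repeats in the reference, made up 7.21% of their bases, 30.1% of the flanks and 39.1% of all desert sequence. The share was 7.94% in intergenic and 7.15% in deep intronic regions. No masked base was found in 1810 members (58.3%), and 47 were masked over more than 50% of their length. Near-identical copies elsewhere were found for 36 of 3103 members that could be searched, 1.16% of all, against 1.81% of intergenic and 0.619% of deep intronic regions. Repeats and copies also lower the share of reads that can be placed, and their part in these counts was not tested.

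Long noncoding genes held 353 members (11.4%). Their median heights were 0.779 and 0.885, against 0.779 and 0.852 for the 2753 outside such genes. The gene with most was 3110039I08Rik, between Ubash3b and Sorl1, with 8 members and medians of 1.18 and 1.30. Gm41335, near Gsdmc, held 7.

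Nearly all members carried footprints. The authors' footprint lists, deposited at a p-value limit of 0.01, had at least 1 footprint in 2912 members (93.8%) of replicate 1 and 2958 (95.2%) of replicate 2, against a background of 93.4% and 94.2% of all shared autosomal regions. The share is therefore near the background. In intergenic regions it was 96.8% and 97.2%, and in deep intronic regions 96.3% and 97.5%. A mean of 2.50 and 2.74 footprints fell in each member. The 6090 flanking windows had footprints in 1 and 2 windows. Windows that overlapped a listed region of either library had been left out, so this low count is a description only. Footprints were missing in both libraries from 58 members, whose median heights were 0.459 and 0.513.

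The 5 members with most footprints had 17 to 19 summed over both libraries. The region 237 kb from Myt1l, a factor that keeps neuronal identity, had 10 and 9 footprints and heights of 4.55 and 4.04. The region 195 kb from Gadd45g, a stress and DNA demethylation gene, had 9 and 10 footprints at heights of 0.962 and 1.33. The region near Irf2bp2 had 12 and 7, so that these 3 tied at 19, and the region near Prkd1 had 9 and 9. The region 115 kb from Bdnf, the neurotrophin gene, had 10 and 7 footprints with heights of 1.09 and 0.710. All 5 were wider than the median, at 340 to 520 bp.

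A second deposited measure, the false discovery rate of the cut rate per base, gave the extent of sensitive sequence. Within 500 bp of the midpoint, the median member had 233 bases at 0.001 or lower in replicate 1 and 276 in replicate 2. Intergenic regions had 251 and 282 and deep intronic regions 220 and 268, while promoter regions had 549 and 730. The extent in deserts lay between those of the 2 other distal classes in both libraries.

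Fewer desert regions than other distal regions carried a CTCF motif, and more carried the short NFI, NEUROD and ASCL motifs. All 27 motifs were searched on both strands, the share of regions with a match carries an exact 95% binomial interval, and intervals cover counting error only. CTCF matches, by a consensus of 12 letters, were found in 269 members (8.66%, 7.69 to 9.71), against 14.3% of all shared distal regions. Intergenic regions had 16.4% (15.4 to 17.4) and deep intronic regions 12.7% (11.8 to 13.6). Of the 6090 flanking windows, 3 (0.0493%) had a match. The desert share fell to 5.58% when all regions listed for replicate 2 alone were used.

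The short NFI, NEUROD and ASCL motifs differed in the other direction. The short NFI motif TTGGCA was found in 835 members (26.9%, 25.3 to 28.5), against 20.4% of all shared distal regions, 19.3% of intergenic, 24.5% of deep intronic regions and 8.83% of flanks. CAGATGG, the NEUROD motif, was found in 481 (15.5%, 14.2 to 16.8), against 11.2%, 11.3%, 12.9% and 3.53%. CAGCTG, the ASCL motif, was found in 659 (21.2%, 19.8 to 22.7), against 18.5%, 17.3%, 18.8% and 6.78%. The intervals of desert and deep intronic regions overlapped for NFI and ASCL and were separate for CTCF and NEUROD. With the regions of replicate 2 alone, the difference from intergenic regions fell from 7.60 to 4.45 percentage points for NFI and from 4.16 to 1.81 for NEUROD. The flanks have fewer G and C bases than the members, and the part of base composition in the difference from flanks was not tested.

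Desert regions are lower and slightly poorer in GC than intergenic ones, and the differences were read again within quartiles of height and of GC, cut over all shared distal regions. From the lowest to the highest quartile of height, CTCF was found in 4.68%, 7.55%, 10.7% and 21.5% of desert regions and in 6.22%, 11.6%, 18.4% and 28.0% of intergenic regions. NEUROD was found in 15.6%, 17.4%, 14.9% and 12.4%, against 10.8%, 12.1%, 12.5% and 9.92%. The short NFI motif was found in 26.2%, 30.2%, 26.8% and 23.2%, against 18.9%, 22.6%, 20.8% and 15.2%. Each difference from intergenic regions kept its direction in each of the 4 quartiles of height, although the intervals overlapped for CTCF in the lowest and the highest quartile and for NEUROD in the third and the fourth. Against deep intronic regions the CTCF difference turned in the lowest quartile, at 4.68% in deserts and 4.50% in introns, and NEUROD was at 12.4% and 12.3% in the highest.

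The 4 quartiles of GC gave the same directions against intergenic regions. CTCF was found in 11.4%, 9.01%, 5.95% and 4.93% of desert regions and in 21.9%, 17.7%, 15.3% and 10.0% of intergenic regions, from the lowest to the highest GC. For the short NFI motif the shares were 25.5%, 30.1%, 28.8% and 21.3%, against 14.5%, 19.9%, 23.7% and 19.1%. NEUROD gave 15.7%, 15.6%, 17.2% and 12.1%, against 10.96%, 11.5%, 12.2% and 10.6%. The intervals of the desert and intergenic shares overlapped for NFI in the third and the fourth quartile and for NEUROD in the second and the fourth. Against deep intronic regions the NFI difference turned in the highest quartile, at 21.3% in deserts and 25.1% in introns.

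For AP-1, TEAD and homeobox motifs the intervals of members and flanks overlapped. AP-1 (TGANTCA) was found in 174 members (5.60%, 4.82 to 6.47), in 5.34% of all shared distal regions and in 5.67% of flanks. TEAD (CATTCC) was found in 10.8%, 10.7% and 9.67%, and the homeobox core TAATTA in 4.60%, 3.16% and 5.94%. CRE (TGACGTCA) was found in 7 members (0.225%), against 0.428% of all shared distal and 2.75% of promoter regions, and MEF2 in 7, against 0.282%. The full RFX motif was found in 16 members (0.515%, against 0.564% of all shared distal regions) and the full NFI motif in 3 (0.0966%, against 0.15%). No member matched YY1, with an upper limit of the interval of 0.119%, against 0.0451% of all shared distal regions.

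**Figure D3:**
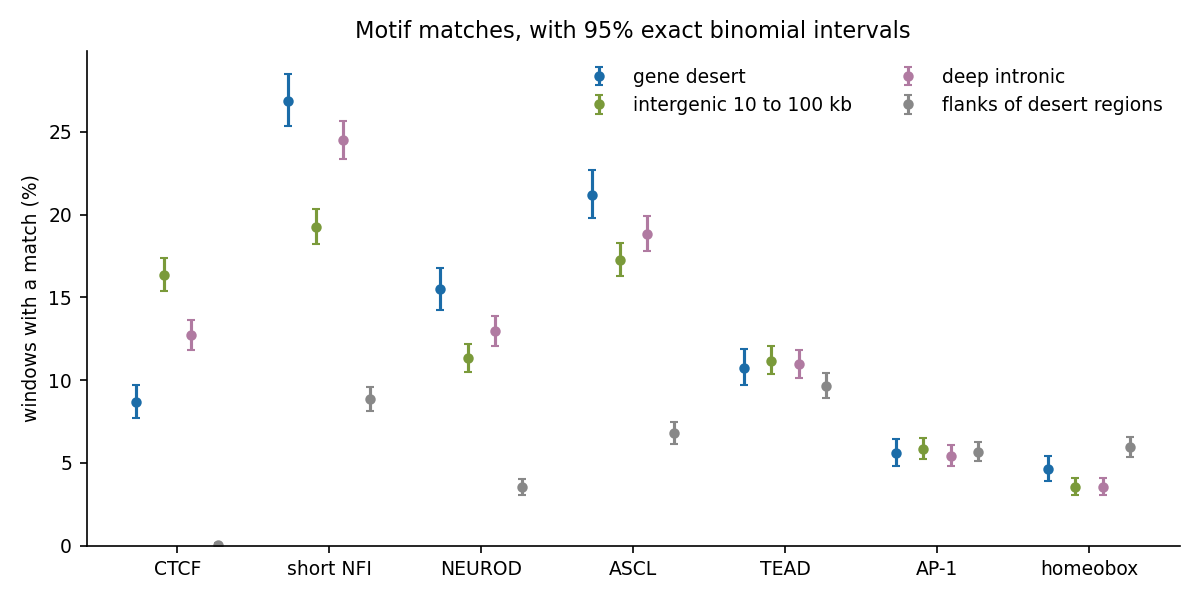
Percent of windows with a motif match, with exact 95% binomial intervals, for gene desert, intergenic and deep intronic regions and for flanking windows of desert regions. CTCF is found in 8.66% of desert and 16.4% of intergenic regions, the short NFI motif in 26.9% and 19.3%, and AP-1 in 5.60% of desert regions and 5.67% of flanks.

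CTCF matches lay mostly in footprints, and members that hold one were higher than the rest. Of the 269 CTCF matches in members, 95.5% overlapped a footprint in replicate 1 and 97.4% in replicate 2, where a window of the same length placed across the members did so in 32.5% and 36.3%. Members with a CTCF match had median heights of 1.18 and 1.56, against 0.761 and 0.825 without. A CTCF match was found in 25 of the 100 highest members (interval 16.9% to 34.7%), in 13.3% of the upper 50% by height and in 4.06% of the lower 50%. Counting also a looser consensus of 12 letters, which contains the first, and AGGGGGC, which can overlap both, 42 of the 100 highest and 549 of all members (17.7%) had a CTCF string, against 28.9% of all shared distal regions. The last string was chosen on the highest members, so their share is a description.

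For the NEUROD, ASCL and short NFI motifs the footprint shares were lower than for CTCF. Members with NEUROD were about as high as those without. The 523 NEUROD matches overlapped a footprint in 51.2% and 53.2%, against 26.4% and 29.8% for windows of that length. The 1032 short NFI matches did so in 47.8% and 50.6%, against 25.2% and 28.4%. For the 766 ASCL matches the shares were 36.4% and 39.4%, against the same window values. All 3 full NFI matches overlapped a footprint in both libraries, a count too small for a share. Of the 16 full RFX matches 12 and 13 were in footprints, while the 187 AP-1 matches, at 25.7% and 27.8%, did not exceed the windows of their length, at 26.4% and 29.8%. Median heights were 0.773 and 0.814 with NEUROD and 0.779 and 0.863 without.

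NFI and ASCL matches had lower shares among members with a CTCF match than among the others. The short NFI motif was found in 34 of the 269 members with CTCF (12.6%) and in 28.2% of the others, at the same median width of 180 bp. ASCL showed the same, at 10.8% and 22.2%, whereas NEUROD was found in 17.5% of members with CTCF and 15.3% of the others. At least 1 of these 4 motifs was present in 1732 members (55.8%).

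Motif shares also shifted with distance. CTCF was found in 10.4% of members at 100 to 200 kb, 7.14% at 200 to 500 kb, 7.73% at 500 to 1000 kb and 7.0% beyond 1000 kb, the last on 7 of 100 regions (2.86 to 13.9). In the neighbouring intergenic bins it was 18.2% at 10 to 50 kb and 11.8% at 50 to 100 kb. The short NFI motif rose over the same 4 desert bins from 25.2% to 27.2%, 30.7% and 33.0%, although the intervals of neighbouring bins overlapped. NEUROD was at 14.8%, 15.5%, 17.6% and 17.0%. Median GC content moved with these bins, from 51.2% to 46.2%, and its part in the trend was not tested.

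Members were spread over many deserts and clustered in some. Gaps between coding gene bodies that contain sequence meeting the rule numbered 1570, and 963 of them (61.3%) had a member. The 40 gaps with 10 or more held 482 members. The median distance to the next member was 50.9 kb. Another member lay within 5 kb of 624 (20.1%), and 1073 (34.5%) had none within 100 kb. The densest 100 kb windows held 7, between Gli2, a mediator of hedgehog signalling, and Inhbb, between Eef2kmt and the neuronal splicing factor gene Rbfox1, and between Gm26897 and Cryba4.

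The gap with most members, 1556 kb between Auts2, a neurodevelopmental regulator, and Castor2, had 21, or 17.3 per Mb of its desert sequence. Their median heights were 1.06 and 1.14. A single region stood apart, 349 kb from the Auts2 body, at 3.41 and 3.94, while the other 20 lay between 0.465 and 1.95 in replicate 1 and between 0.513 and 2.01 in replicate 2. A CTCF match was found in 1, the short NFI motif in 8 and NEUROD in 4.

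The gap between Tmem182 and Pou3f3, a POU factor of forebrain neurons, had 18 members with medians of 0.805 and 0.808 and no CTCF match. Within it, 4 members lay 1682 to 1684 kb from Tmem182, at heights of 0.553 to 1.06 in replicate 1 and 0.716 to 1.02 in replicate 2. The gap between Sall1 and Tox3 had 16, of which 5 had heights of 1.75 to 2.53 in replicate 1 and 2.15 to 3.70 in replicate 2. The other 11 lay lower in both libraries, at 0.421 to 0.836 and 0.404 to 0.798. Its highest in replicate 2, 528 kb from Sall1, had 2.29 and 3.70 and a CTCF match, as had the member 741 kb from Sall1, at 2.53 and 3.15.

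**Figure D4:**
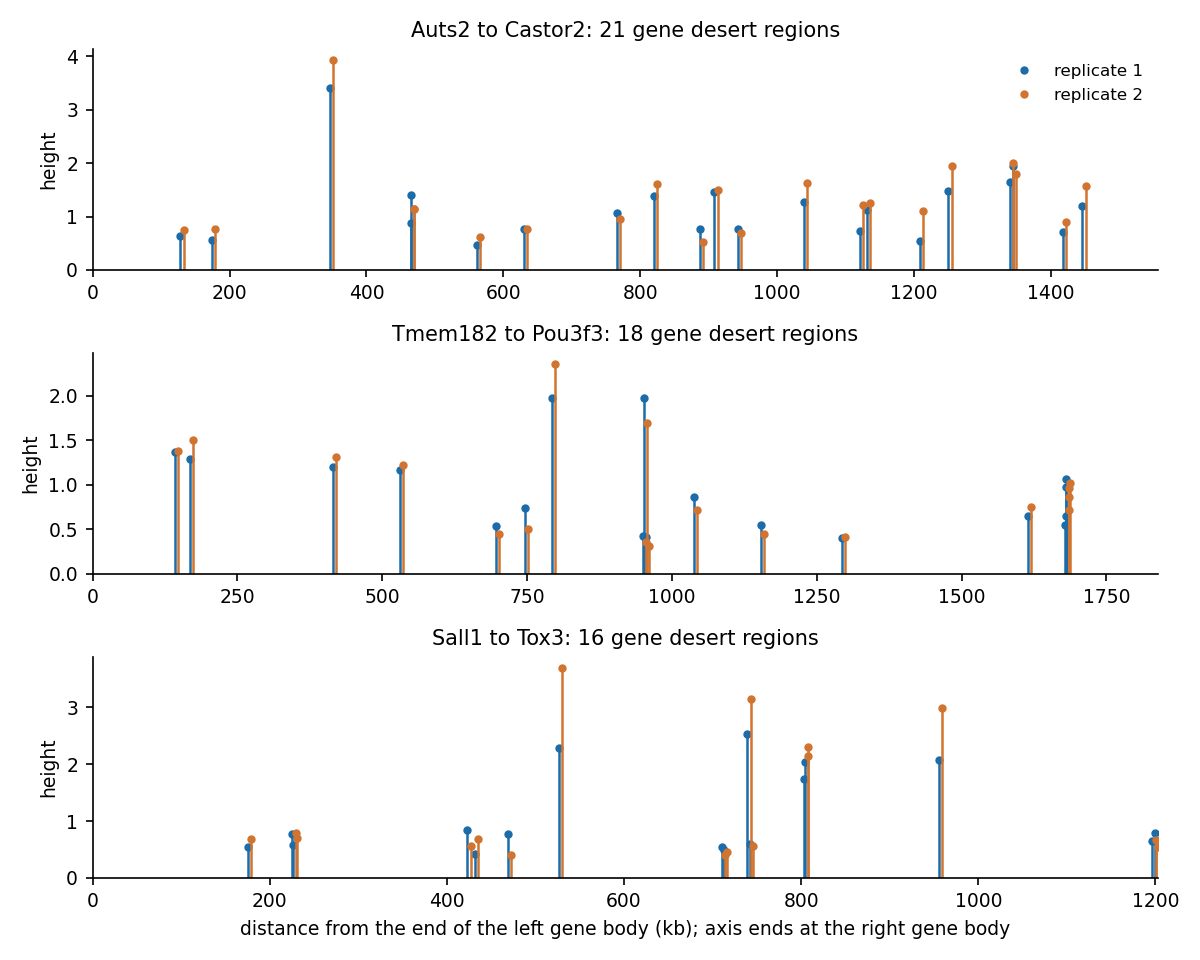
Height (deposited signal) of each gene desert region in the 3 gaps with most members, by distance from the end of the left gene body (kb), blue for replicate 1 and orange for replicate 2. In the Auts2 to Castor2 gap 1 region at 349 kb reaches 3.41 and 3.94, and in the Tmem182 to Pou3f3 gap 4 regions crowd at 1682 to 1684 kb.

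The Kcnj2 to Sox9 gap had 15 members, 10.9 per Mb, with medians of 0.729 and 0.541. The Celf4 to Pik3c3 gap also had 15, but over 3894 kb of desert, or 3.85 per Mb. Zeb2 to Acvr2a and Klf4 to Actl7b had 15 each, at 4.76 and 16.2 per Mb. When the lists of replicates 1 and 2 were taken without the overlap, the counts were 23 and 34 in the Auts2 gap, 18 and 22 in the Sox9 gap, 18 and 25 in the Celf4 gap, 17 and 23 in the Zeb2 gap, and 17 and 27 in the Klf4 gap. With the longer lists the Auts2 gap, at 34, was passed by the Zeb2 gap with 35 and the Klf4 gap with 36.

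Each member was then given to the protein-coding gene with the nearest start. Of 2535 genes nearest to some desert sequence, 1279 (50.5%) were nearest to at least 1 member. Sox9, a factor of astrocytes and neural progenitors, had most shared members, with 16 at 128 to 726 kb, median heights of 1.02 and 0.923, and no CTCF match. Castor2, a regulator of mTOR signalling, had 13, with medians of 1.19 and 1.49. Klf4, a zinc finger factor, had 13, with medians of 0.761 and 0.852.

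Acvr2a, an activin receptor gene, Pik3c3, a lipid kinase of autophagy, and Tbl1xr1, a corepressor subunit, had 12 each. Pou3f3, Tox3 and Zfp608 had 11 each, and Dsel 10. Nearest position does not show which gene a region acts on. In the lists of single libraries Sox9 had 16 and 25, Tbl1xr1 18 and 20, Mki67 9 and 25, Klf4 15 and 21, Zfp608 14 and 23, and Tox3 15 and 12. Sox9 was thus below Tbl1xr1 in replicate 1 and level with Mki67 in replicate 2. Among the stronger 50% of regions Sox9 had 5, Tbl1xr1 6 and Castor2 8.

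Forebrain transcription factors were nearest to members at a higher share than all genes beside deserts. Of 58 in the list, 46 were nearest to desert sequence and 36 of these (78.3%) to a member, against 50.5% of all such genes. Their desert stretches were longer, with a median of 311 kb against 99.99 kb, and the density was 5.60 per Mb against 5.18 per Mb. Pou3f3 had 11 members, Sox11, which acts in immature neurons, 8, and Sox2, a factor of neural stem cells, 7, with medians of 1.05 and 0.885. Pou3f2 had 806 kb of desert and no member.

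Cell adhesion and synapse genes had the longest desert stretches of these lists, with a median of 897 kb, and few regions for that length. Of 49 nearest to desert sequence 34 (69.4%) had a member, but their 94 members lay in 55.4 Mb, or 1.70 per Mb. Over all genes these values were 50.5% and 5.18 per Mb. Density over all members also fell with distance, from 8.44 per Mb at 100 to 200 kb to 1.60 beyond 1000 kb. The densities of the lists were not matched for distance, and its part in them was not tested. Cdh8, a cadherin gene, had 9 in 2671 kb, Tenm2 7 in 1525 kb and Pcdh18 5 in 1336 kb. Cdh7, with 1287 kb, and Lrrc4c, with 1128 kb, had none. An exception was Ntm, with 3 members in 101 kb and medians of 2.85 and 3.55.

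Axon guidance genes had members in 17 of 25 (68.0%) at 2.99 per Mb, with 7 at the ephrin receptor gene Epha4, 6 at Robo1, which binds Slit proteins, and 4 at Plxna2, a semaphorin receptor. Over all genes nearest to desert sequence the values were 50.5% and 5.18 per Mb. Channels and receptors had members in 18 of 33 (54.5%), near that share, at 3.83 per Mb. The cannabinoid receptor gene Cnr1 and the glutamate receptor genes Gria1 and Grm7 had 4 each. Grik2, a kainate receptor gene with 1590 kb of desert, had none.

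Activity response genes had members in 5 of 12 (41.7%), 23 in all at 9.81 per Mb, of which Klf4 gave 13. Bdnf, Inhba and Pcsk1 had 3 each, those of Inhba at medians of 2.51 and 2.35. Astrocyte genes had members in 5 of 6, again 23 in all at 15.8 per Mb, of which Sox9 gave 16 and Gja1, the gap junction gene, 4. In both lists most members came from 1 gene. Over all genes nearest to desert sequence the share was 50.5% and the density 5.18 per Mb.

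Lists of other cells had few bordering genes, and over all genes nearest to desert sequence 50.5% had a member, at 5.18 per Mb. Sall1, a factor of microglia also used in other tissues, had 8 members and was the only microglial gene nearest to desert sequence. Endothelial and mural genes had members in 2 of 4 at 8.22 per Mb, Cdh5 with 6 and Kdr with 1. Interneuron genes had members in 5 of 10, near the share over all genes, with 4 at Maf. Prox1 was in the interneuron list and in the forebrain list. The hepatocyte and muscle list had members in 3 of 4, with 7 at Foxa2, whose promoter was closed in both libraries, 4 at Apob and 1 at Tbx5. Pdgfra, the only oligodendrocyte gene nearest to desert sequence, had none, and no Hox gene was nearest to any.

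**Figure D5:**
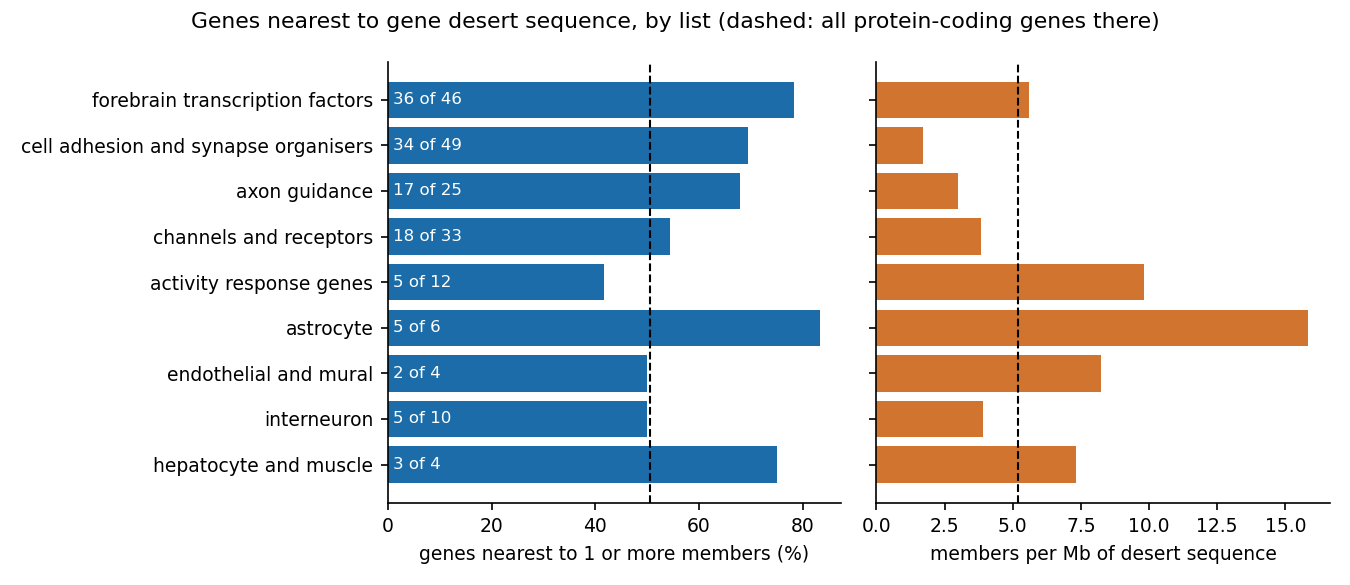
Left, percent of genes nearest to desert sequence that were nearest to 1 or more members, by gene list with at least 4 such genes; right, members per Mb of that sequence; dashed lines give the values over all protein-coding genes, 50.5% and 5.18 per Mb. Cell adhesion genes lie above the line on the left (69.4%) and below it on the right (1.70 per Mb). Lists were not matched for distance from the start.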

How the data were processed

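The data are 2 DNase-seq libraries of hippocampus on the assembly mm10, per the labels. Region lists were deposited per library, with a signal height per region as the authors' own value, derived from filtered alignments per the deposited notes. For the caller, its threshold, the scaling of heights and the sequencing depth, the sources used here give nothing. The shorter list of each library was the main one. All deposited footprints carry the p-value 0.01, taken as a limit set by the authors. The deposited false discovery rates per base were treated as adjusted p-values.

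Regions were placed with GENCODE M21, and sequence came from the RefSeq copy of GRCm38.p6, in which all region ends lay within the chromosomes. Motifs, 26 chosen with the gene lists plus AGGGGGC, were searched on both strands. Copies were searched with BLAST 2.17.0 with low-complexity masking. Intervals are exact (Clopper-Pearson, 95%), also for a count of 0, and cover counting error only. Values are given per library. With 1 group there was no comparison to test, and regions are not replicates. Overlap, motif search and classification were tested on simulated data.

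The members, motifs and 12 gene lists were chosen with earlier results of these data known. Regions are named by rule: the 10 highest by mean rank of both libraries, the 5 farthest, 5 widest and 5 with most footprints, the highest with given motifs, the gaps and genes with most members, and up to 3 genes with most members per list. Genes with long deserts and no member, Ntm, Kdr, Apob, Tbx5, Mki67, the densest windows and the long noncoding genes were named after their values were seen. Alternatives covered the longer list, the stronger 50% of regions, overlap, the distance limit, each library alone, copies and other CTCF strings. No sequence of chromosome 18 is printed.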

Additional observations from a re-analysis of the deposited data

How the results depend on the processing

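The desert to intergenic height ratio stayed below 1, the CTCF difference below 0, and the NEUROD and NFI differences above 0 in each alternative that recomputed them. Of 95 recomputed values 57 moved by less than a spread set for each result, and 38 by more. For motif shares and their differences this spread was the counting error of the 95% intervals. For counts it was a factor of 1.5, and for the rest the spread between libraries. Among these values only the motif differences could change sign, and none did. With the longer list there were 6921 desert regions, a median height of 0.507, footprints in 81.3%, CTCF in 4.77%, differences from intergenic regions of -6.26 (CTCF), 2.20 (NEUROD) and 5.25 (NFI) percentage points, and 7.78% masked bases. With the stronger 50% of regions there were 825, at a height of 1.79, a height ratio of 0.913, footprints in 99.9% and CTCF in 16.5%. A reciprocal overlap of 50% gave a height of 0.902, footprints in 97.0% and CTCF in 9.98%. A limit of 50 kb gave 4715 regions, a height of 0.887, CTCF in 9.73% and a NEUROD difference of 2.59 points, and a limit of 200 kb gave 1707, 0.752 and 7.26%. The looser CTCF consensus gave 13.9% and a difference of -11.2 points, and AGGGGGC, added after seeing the data, 6.70% and -5.44 points.

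With the regions of 1 library alone (leaving out replicate 2 or replicate 1), there were 3655 to 5521 desert regions, median heights of 0.612 to 0.710, height ratios of 0.671 to 0.720, footprints in 88.2% to 91.1%, CTCF in 5.58% to 7.52%, CTCF differences of -7.23 to -6.19, NEUROD differences of 1.81 to 3.85 and NFI differences of 4.45 to 7.03 percentage points, and 7.37% to 7.96% masked bases. The cause of these shifts was not tested.

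No paired analysis was possible because both libraries belong to 1 group, so no sample groups share replicate numbers. Region classes were compared within each library. The sequencing depth of both libraries is unknown, so no limit of detection is given.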
